A study of Bos taurus with 43 samples.

Results

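Group B and group A of the unknown commercial animals held 10 and 11 of the 43 male cattle whose biceps brachii, a muscle of the forelimb, was hybridized to a single-colour bovine oligonucleotide array, 1 animal per array. All 21 were beef animals sampled at slaughter whose corticosteroid history was not known, most of them Charolais, Limousine or crosses of both, and the labels give no agent, dose, age or breed for any of them. Group B was made up of animals 29, 39, 50, 52, 60, 61, 76, 78, 79 and 81, and group A of animals 36, 37, 38, 49, 51, 58, 263, 265, 266, 269 and 270. The study drew both groups by eye on a plot of the first principal components of 30 arrays, which left out the Holstein controls. The same signals that are described here therefore placed the animals in their groups, and the differences between group B and group A are given as descriptions with no p-value.

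The other 22 arrays came from 4 animals judged positive for corticosteroids by thymus histology and by dexamethasone in urine (the labels call them suspected), from 5 untreated cross-breed controls (Charolais × Limousine) and from 13 untreated Holstein controls. The controls came from separate earlier experiments. The positive animals and cross-breed controls were among the 30 arrays of the component plot, and the Holstein controls were not.

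Skeletal muscle is a mosaic of slow fibres, which work by oxidative metabolism, and fast fibres, which rely more on glycogen and glycolysis, and each fibre type has its own myosins, troponins and calcium pumps. Glucocorticoids such as dexamethasone enter cells and activate the glucocorticoid receptor, which switches on genes such as FKBP5, TSC22D3 and KLF15, and long exposure is known for wasting of fast fibres through the ubiquitin ligases TRIM63 and FBXO32. The comparison of group B with group A asks which muscle genes separate commercial animals that resemble the positive animals from commercial animals that do not.

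On component 1, recomputed here from the 30 arrays, group B spanned scores of 23.5 to 82.6, and the group A scores ran from -105 to -17.7. The members nearest to the other group were animal 52 of group B, at 23.5, and animal 58 of group A, at -17.7. The 4 positive animals scored 71.1 to 82.3 and lay among the group B arrays, whereas the cross-breed controls scored -37.7 to -23.7 and differed from group A mainly on component 2.

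**Figure D1:**
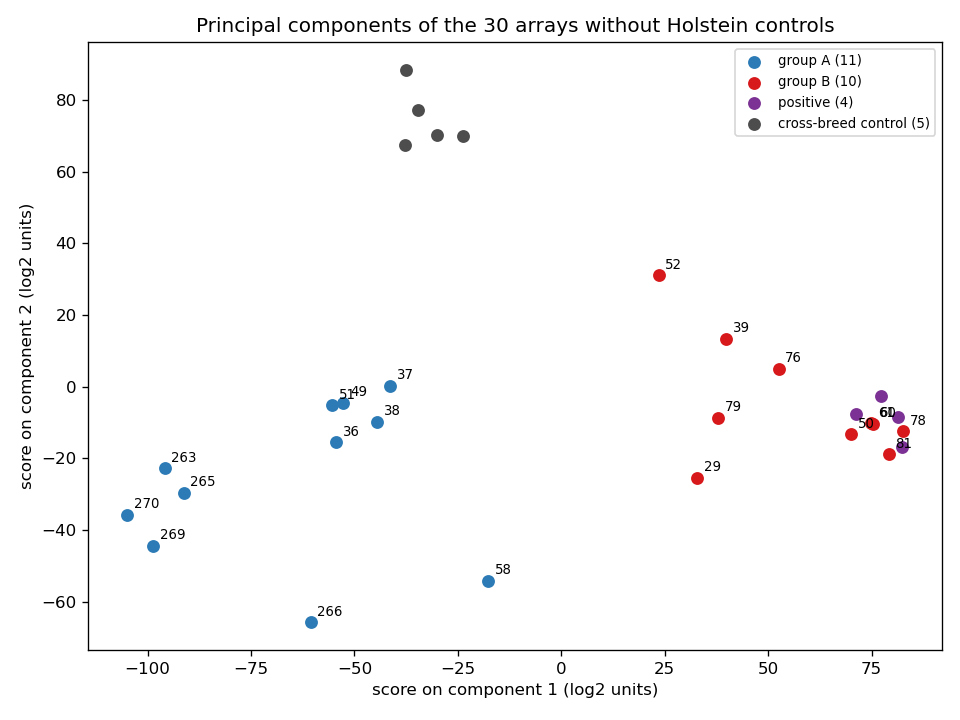
Scores of the 30 arrays without Holstein controls on component 1 (x axis) and component 2 (y axis), in log2 units, 1 point per animal, with animal numbers for groups A and B. Group B lies at 23.5 or higher on component 1 and group A at -17.7 or lower; the cross-breed controls lie apart, at 67.4 to 88.4 on component 2.

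The 2 groups shared no slide and no scan day. Group A lay on slides 5 to 7, which belong to the same run of slide numbers as the slides of the cross-breed controls (run 1), and group B lay on slides 8 to 12, in the run that also held the positive animals and Holstein controls (run 2). Animals 50 and 81 shared slide 9, and animals 78 and 79 slide 10, with the positive animals. Group and slide run cannot be told apart between group A and group B.

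Array quality was more even in group A. Spots called well above background by the scanner software made up 66.3% to 79.2% of gene spots in group A and 40.2% to 97.3% in group B. The lowest share was that of animal 79, and the next in group B was 63.6%, in animal 76. The mean log2 signal of the 7 brightest of the 10 spike-in RNAs was 11.89 ± 0.26 (SD, n = 11) in group A and 10.20 ± 2.31 (SD, n = 10) in group B, where it lay between 7.75 and 8.41 in animals 29, 39, 52, 61 and 76. The part of these differences in the results was not tested, but the numbers of probes higher and lower in group B were also counted without the arrays concerned.

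Of 16354 probes past the filter on dim signals, 825 (5.04%) were higher in group B, with all 10 group B arrays above all 11 group A arrays and group means at least 2-fold apart. By the same rule 534 probes (3.27%) were lower. The higher probes differed more, with a median difference of 1.93 on the log2 scale against -1.44 for the lower ones. At least 8-fold differences were found for 115 higher probes and 4 lower ones. Over all 16354 probes the median difference was -0.05. Higher probes made up 60.7% of the counted ones, 83.0% with normexp background correction, and 50.9% after quantile normalization, which gave 684 higher and 660 lower probes.

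The counted probes were measured above background to different extents. Of the 825 higher probes, 633 were well above background on every array of group A and 556 on every array of group B, and 64 were well above background on no array of group A. Of the 534 lower probes, 440 were well above background on every array of group A and 175 on every array of group B, and 9 were well above background on no group B array. The counts over every group B array take in animal 79, with 40.2% of its gene spots well above background. Without the 5 group B animals of low spike-in signal, 1304 probes were higher and 935 lower, and these included 803 of the 825 and 516 of the 534. Leaving out arrays cannot make separate ranges overlap, so that only the 2-fold limit could remove a probe and these shared numbers are no sign of stability.

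**Figure D2:**
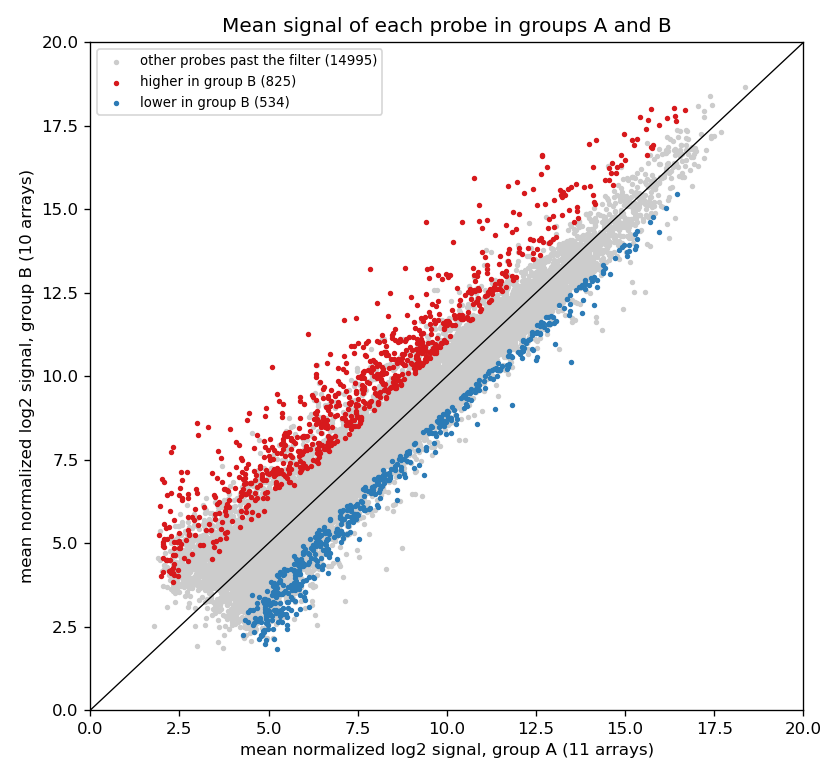
Mean normalized log2 signal of each of 16354 probes in group A (x axis, 11 arrays) against group B (y axis, 10 arrays), with the line of equal signal. Red points are the 825 probes higher in group B and blue points the 534 lower ones; the red cloud reaches farther from the line than the blue one.

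The animals whose status was known bear on these probes in different ways. Between positive animals and cross-breed controls, limma with Benjamini-Hochberg adjustment called 2347 of the 16354 probes higher (14.4%) and 2251 lower (13.8%) in the positive animals, at an adjusted p under 0.05 and at least 2-fold. The higher share of these calls, 51.0%, depended on the scaling and was 69.2% with 75th percentile scaling, 39.8% after quantile normalization and 32.96% after pairwise cyclic loess. Of the 825 probes higher in group B, 334 (40.5%) were called higher in the positive animals and 13 lower. Of the 534 probes lower in group B, 275 (51.5%) were called lower in the positive animals and 0 higher. These arrays helped to place the groups, and positive animals and cross-breed controls shared no slide. The cross-breed controls were read on scanners 1 and 2, and the positive animals, like groups A and B, on scanner 3. Treatment, breed, slide run and scanner therefore cannot be told apart in that test either.

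The mean of the positive animals fell within the group B range for 764 of the 825 higher probes and for 501 of the 534 lower ones. The cross-breed controls were divided. Their mean lay within the group A range for 273 higher probes, within the group B range for 282 and between both ranges for 237. Among the lower probes it lay within the group A range for 327 and within the group B range for 97.

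The Holstein controls, which had no part in drawing the groups, sat with group B. Their mean was within the group B range for 622 of the 825 higher probes (75.4%) and within the group A range for 54 (6.55%). For the 534 lower probes these numbers were 344 (64.42%) and 75 (14.04%). Untreated Holstein animals thus had group B levels at most of the counted probes, and they shared slide run 2 with group B.

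The counted probes were then sorted by which of all 43 arrays they set apart without overlap. Group A stood apart from all 32 other arrays at 325 of the 825 higher probes (39.4%) and at 40 of the 534 lower ones (7.49%). The 16 arrays of slide run 1 stood apart from the 27 of run 2 at 191 higher (23.2%) and 49 lower probes (9.18%), and some probes did both. Group B together with the positive animals stood apart from group A and both control groups at 17 higher (2.06%) and 14 lower probes (2.62%). Group B stood apart from all 33 other arrays at 0 probes. The study drew group B as the animals that lay with the positive ones, so that such probes were unlikely from the outset. These splits differ in size and were looked for only among the counted probes, so that their numbers do not rank them.

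Genes were named by a fixed rule from the largest differences in each direction and from 27 gene lists. The largest differences came from genes with no single theme. C22orf5, described only by its open reading frame, had log2 signals of 1.37 to 5.41 (median 3.02) in group A and 8.01 to 9.12 (median 8.67) in group B. It was well above background on 0 of 11 group A arrays and on all 10 group B arrays, at least 26.3-fold higher in group B. The cross-breed and Holstein controls had signals of 6.91 to 8.52, so that group A was the group that stood alone.

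The same order of groups was found for a set of genes from unrelated families. ZDHHC5, a palmitoyltransferase, had 3.85 to 6.44 (median 5.32) in group A and 8.96 to 9.88 (median 9.46) in group B. Its levels were 9.26 to 9.42 in the positive animals, 9.17 to 9.85 in cross-breed and 8.60 to 9.90 in Holstein controls. ZDHHC5 differed by 4.23 between group B and group A, and by -0.17 between positive animals and cross-breed controls (limma adjusted p = 0.446). GATB, a mitochondrial amidotransferase subunit, TOB2, an antiproliferative regulator, and KLK15, a serine protease, differed by 4.30, 4.45 and 5.18, and group A had the lowest levels of all 43 arrays for each.

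A second set followed the slide run. TMEM218, a transmembrane protein, had 7.32 to 8.63 (median 7.76) in group A and 12.59 to 13.70 (median 13.27) in group B, with 8.14 to 9.57 in cross-breed and 12.64 to 13.77 in Holstein controls. MOCS3, which activates the molybdenum cofactor pathway, had 8.49 to 10.75 (median 9.31) in group A and 14.01 to 15.07 (median 14.64) in group B. Its signal was 8.94 to 11.01 in cross-breed and 14.36 to 15.33 in Holstein controls. Between positive animals and cross-breed controls, TMEM218 was higher by 4.57 and MOCS3 by 4.74 (limma adjusted p = 4.82e-06 and 1.01e-05).

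BAIAP2L2, a membrane-curving protein of the actin cortex, was also set apart by slide run, at 4.92 to 7.47 (median 6.21) in group A and 10.35 to 11.97 (median 11.28) in group B. METTL2A, a methyltransferase that modifies transfer RNA, APBA3, an adaptor of amyloid precursor protein, and RPL34, a ribosomal protein, differed by 5.19, 4.24 and 4.44. These 3 genes kept group A lowest of all arrays and the cross-breed controls between group A and the rest. A second APBA3 probe differed by 1.89.

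The 12 named lower genes with the largest differences were mostly dim in group B. NPL, which breaks down sialic acid, had 12.38 to 14.42 (median 13.54) in group A and 9.54 to 11.15 (median 10.46) in group B. It was lower in the positive animals than in the cross-breed controls by 1.84 (limma adjusted p = 2.71e-04, log2 scale). RUNX3, a transcription factor of lymphocytes and neurons, had 10.89 to 13.19 (median 11.84) in group A and 8.20 to 10.06 (median 9.14) in group B. Its positive and cross-breed ranges were 9.22 to 9.54 and 9.39 to 10.86. CCDC21, a coiled-coil protein, differed by -2.41 and was well above background on 9 of 10 group B arrays.

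ZSCAN10, KCNS1, ASB13, TCF12, KLHDC8B, NPAS2, FCMR, CHST6 and MX2 differed by -3.06 to -2.41 and were well above background on all 11 group A arrays but on only 1 or 2 of the 10 group B arrays. Their differences rest on group B signals at background level. ZSCAN10 and NPAS2 are transcription factors, KCNS1 is a potassium channel subunit, and MX2 is an interferon-induced GTPase.

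**Figure D3:**
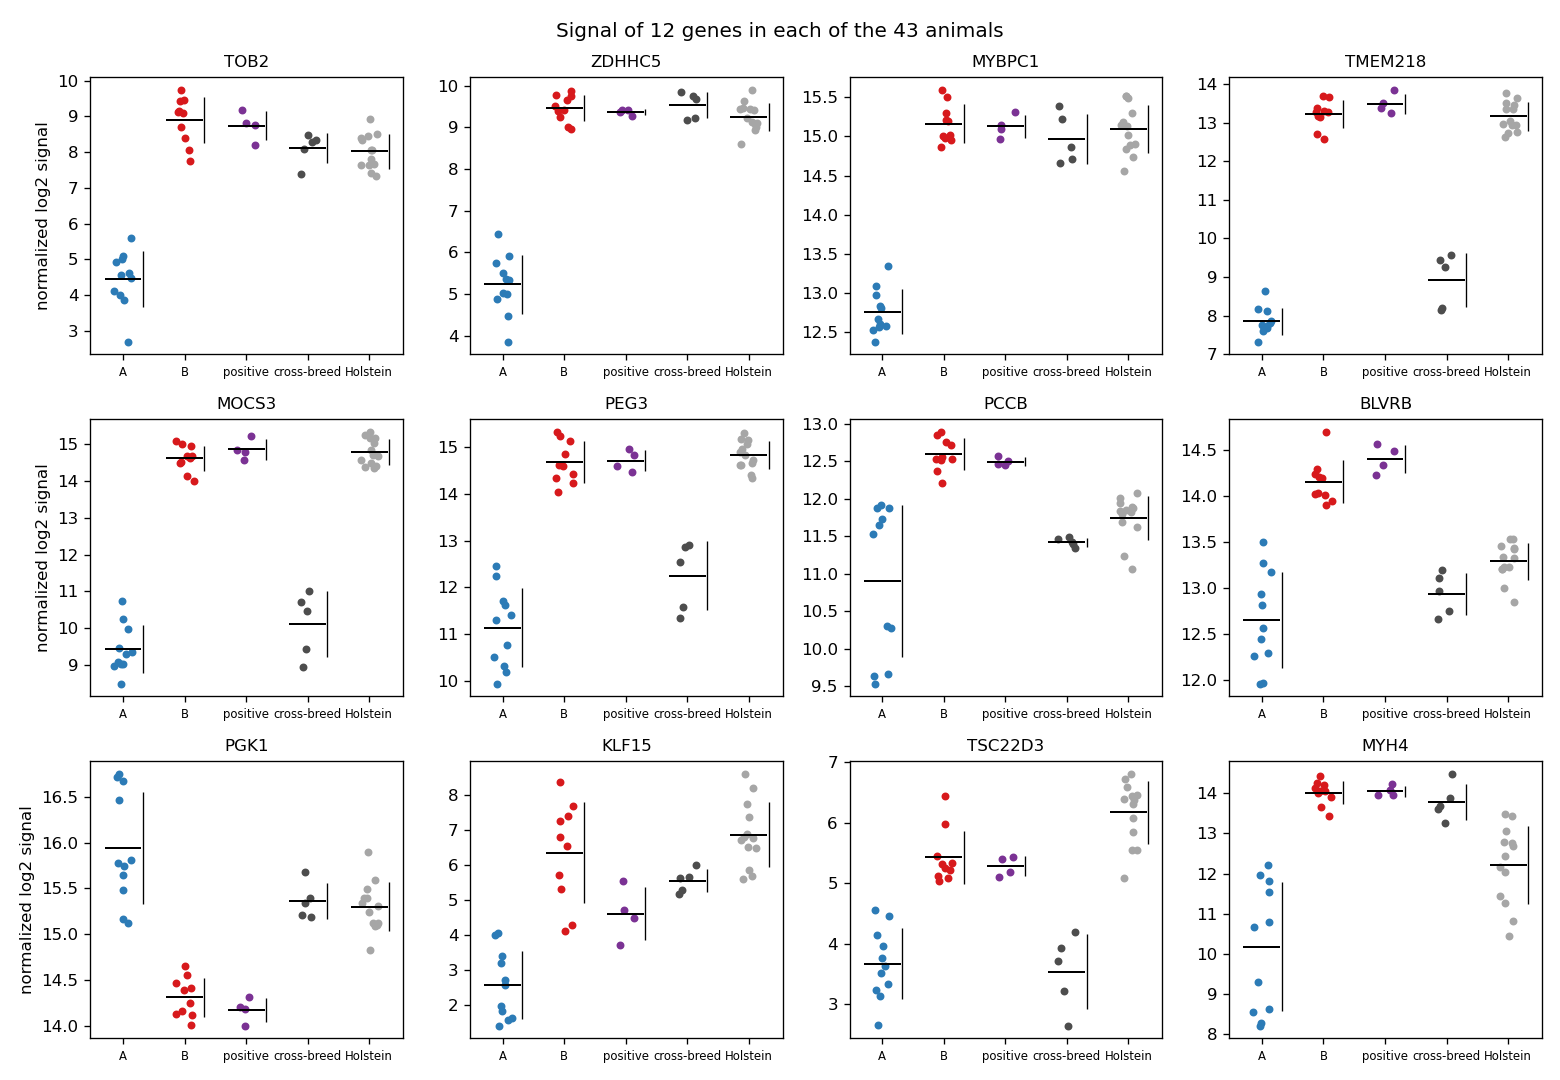
Normalized log2 signal of 12 genes (y axes) in group A, group B, positive animals, cross-breed controls and Holstein controls, 1 point per animal, with the group mean as a bar and its SD as a line. TOB2, ZDHHC5 and MYBPC1 set group A apart, TMEM218, MOCS3 and PEG3 put group A with the cross-breed controls, and PCCB, BLVRB and PGK1 put group B with the positive animals alone.

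The few probes that grouped group B with the positive animals, against group A and untreated animals of both breeds and both slide runs, were examined further. From the named genes they held PCCB, BLVRB and ANKRD35, higher, and PGK1, lower. PCCB, a subunit of the enzyme that carries propionate towards the citric acid cycle, had 9.53 to 11.91 (median 11.53) in group A and 12.21 to 12.89 (median 12.55) in group B, with 12.45 to 12.57 in the positive animals, 11.34 to 11.49 in cross-breed and 11.06 to 12.07 in Holstein controls. The lowest group B level was thus 0.14 above the highest Holstein level. PCCB was one of the classifier genes of the study and was chosen there on positive and control animals.

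BLVRB, which reduces biliverdin and flavins, had 11.96 to 13.50 (median 12.56) in group A and 13.90 to 14.70 (median 14.11) in group B. The cross-breed controls had 12.67 to 13.19 and the Holstein controls 12.85 to 13.53. ANKRD35, an ankyrin repeat protein of unsettled function, had 8.68 to 11.07 (median 10.61) in group A and 11.17 to 12.17 (median 11.34) in group B, so that the ranges lay close together. Without animals 263, 265, 266, 269 and 270 of group A, PCCB and ANKRD35 differed by 0.84 and 0.67, under 2-fold, and neither would be counted. PGK1, which makes ATP in glycolysis, had 15.12 to 16.75 (median 15.78) in group A, 14.01 to 14.65 (median 14.32) in group B and 14.002 to 14.32 in the positive animals. Its levels in the controls were 15.19 to 15.68 in cross-breed and 14.82 to 15.90 in Holstein animals.

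The other 27 of these 31 probes fell outside the rule for named genes, and those given here were chosen after their values were seen. HPD, an enzyme of tyrosine breakdown, differed by 2.94 and had signals of 6.70 to 7.94 in group B, at most 5.70 in group A and at most 5.61 in the controls. NDRG4, a stress-responsive cytoplasmic protein of heart and brain, and GATD1, of the DJ-1 family, differed by 2.46 and 3.23. ACADSB, of branched-chain amino acid breakdown, MGLL, which splits monoglycerides, and NQO2, a quinone reductase, differed by 1.11, 1.55 and 1.32. IL6R, the interleukin 6 receptor, and TSC2, which restrains mTOR, differed by 1.57 and 1.73.

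Among the 14 lower probes of this kind, BGLAP, described as osteocalcin, differed by -2.02, with a group B range of 10.04 to 11.03 and a group A range of 11.04 to 13.78. NAMPT, which makes the NAD precursor, differed by -1.80 and CAPZA2, a cap of actin filaments, by -1.51. PTBP2, a splicing regulator, and COPS8, of the COP9 signalosome, differed by -1.33 and -1.26. The margins between the groups were small for many of these probes, 0.01 for BGLAP between group A and group B.

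Muscle markers were bright in all 21 animals. All 8 markers of skeletal muscle were well above background on every array of both groups. ACTA1, the sarcomeric actin of adult muscle, had 15.40 to 16.06 (median 15.60) in group A and 17.22 to 18.21 (median 17.67) in group B. The cross-breed controls had ACTA1 at 15.78 to 16.72 and the Holstein controls at 17.19 to 17.75, so that it followed the slide run. NEB, which sets the length of thin filaments, differed by 1.63. A further NEB probe differed by 0.06 and another by 2.39. CKM, DES, MYOZ1, TCAP and TTN differed by -0.64 to 0.38 with overlapping ranges, and a second TTN probe differed by 1.21.

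MB, the oxygen-binding myoglobin of oxidative fibres, had 16.92 to 17.98 (median 17.33) in group A and 17.26 to 19.03 (median 18.49) in group B. The group B range reached down to 17.26, in animal 76, whereas the other 9 animals had 18.19 or more. MB had saturated spots on 5 group B arrays, that of animal 76 among them, and on none of group A, so that the order of the group B animals is not firm.

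Of 12 genes of slow fibres, 6 were higher in group B and 0 lower, beside 5.04% and 3.27% of all probes. Their median difference was 1.13, and 0.66 without animals 263, 265, 266, 269 and 270. The 6 higher genes were MYOZ2, a calcineurin-binding protein of the Z disc (2.61), MYBPC1, the slow myosin-binding protein C (2.40), TNNT1, slow troponin T (2.36), MYL6B (2.28) and MYL2 (1.67), myosin light chains, and MYH7, the slow myosin heavy chain (1.30). MYBPC1 had 12.38 to 13.34 (median 12.66) in group A and 14.87 to 15.60 (median 15.11) in group B, and the controls had 14.56 to 15.52.

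Group A was thus the low group for MYBPC1. TNNT1 had 14.54 to 16.32 (median 15.53) in group A and 17.36 to 18.06 (median 17.81) in group B, with 16.40 to 17.001 in the cross-breed and 16.66 to 17.74 in the Holstein controls. MYH7 ran from 16.39 to 17.10 in group A and from 17.11 to 18.50 in group B, a gap of 0.01. Between positive animals and cross-breed controls 4 of the 12 were called higher and 1 lower (limma), beside 14.4% and 13.8% of all probes.

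Of 11 genes of fast fibres, 1 was higher in group B and 0 lower, near the 5.04% and 3.27% of all probes, and the median difference was -1.73. ACTN3, the fast-fibre alpha-actinin, had 13.02 to 17.79 in group A and 10.35 to 14.05 in group B, a difference of -3.04 with overlap. MYBPC2 and TNNT3, the fast forms of myosin-binding protein C and troponin T, differed by -2.72 and -2.55, also with overlap. MYH4, described as the fast IIb myosin heavy chain, went the other way, with 8.21 to 12.22 (median 10.66) in group A and 13.45 to 14.42 (median 14.06) in group B. Cross-breed controls had MYH4 at 13.25 to 14.49. In the positive animals 8 of the 11 fast-fibre genes were called lower than in cross-breed controls and 0 higher, beside 13.8% lower and 14.4% higher over all probes.

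Fibre genes varied within both groups. As the median deviation of the fast fibre genes from their mean over the 21 animals, group B ran from -2.56 (animal 39) to 1.47 (animal 52), and group A from -0.73 (animal 38) to 2.36 (animal 269). In group A the high values belonged to animals 263, 265, 266, 269 and 270, from 1.22 to 2.36, and the other 6 ran from -0.73 to 0.58. Of these 5 animals, 4 made up slide 7, whereas animal 269 shared slide 6 with animals 36 and 58, which had fast fibre values of -0.13 and -0.59. For the slow fibre genes the same 5 animals had -1.54 to -1.01, the other group A animals -0.40 to 0.13 and group B 0.32 to 1.03. All 10 group B animals were thus above all group A animals in slow fibre genes, whatever their fast fibre level. The untreated controls overlapped both groups in slow fibre genes, at -0.05 to 0.55 in cross-breed and -0.19 to 0.68 in Holstein animals. In fast fibre genes the cross-breed controls had 1.43 to 2.34 and the Holstein controls 2.56 to 3.17.

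**Figure D4:**
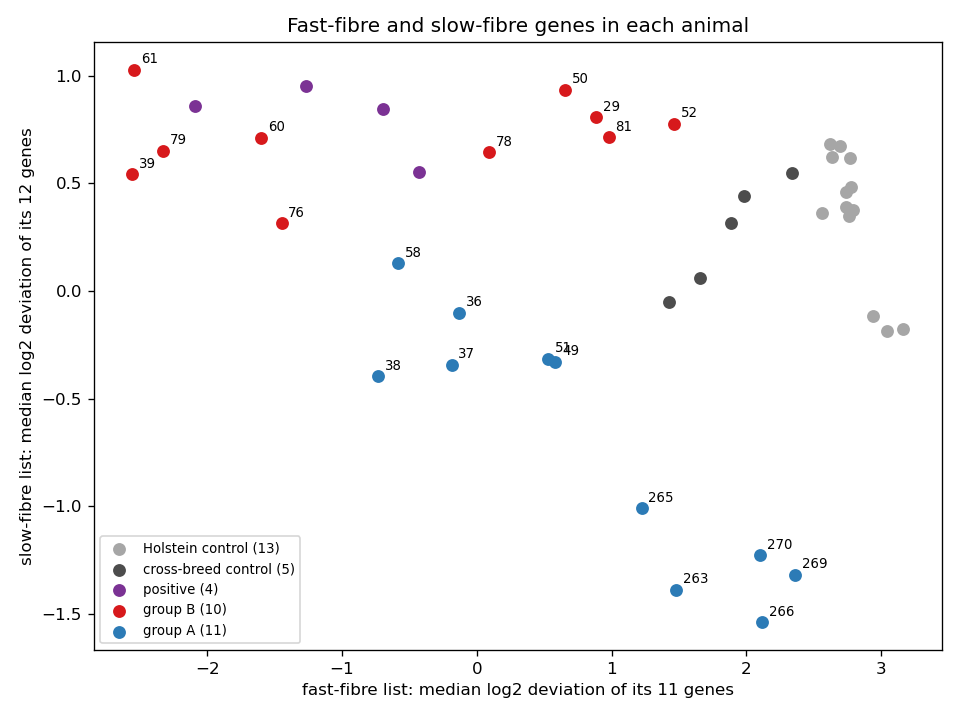
Median log2 deviation of 11 fast fibre genes (x axis) against that of 12 slow fibre genes (y axis) in each of the 43 animals, from the gene means over the 21 unknown animals, with numbers for groups A and B. Group B spans -2.56 to 1.47 in fast fibre genes but stays at 0.32 or higher in slow fibre genes; animals 263, 265, 266, 269 and 270 of group A form the lower right corner.

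These 5 animals, which carry the highest numbers of group A (263 and above), also stood apart from the rest of group A in single genes. PCCB was 9.53 to 10.30 in them and 11.53 to 11.91 in the other 6 group A animals, and MYH4 was 8.21 to 9.31 against 10.66 to 12.22. FRZB, a secreted Wnt antagonist, was 10.51 to 11.51 in them, 4.68 to 8.20 in the other group A animals and 2.53 to 6.18 in group B. HOXA9, a homeobox gene whose muscle expression depends on the position in the body, was 10.98 to 11.37 against 2.64 to 5.44. At FRZB and HOXA9 the untreated controls lay near these 5 animals. FRZB was 10.07 to 12.67 in cross-breed and 8.97 to 11.29 in Holstein controls. HOXA9 was 10.60 to 11.47 in cross-breed and 10.30 to 11.67 in Holstein controls. The positive animals had FRZB at 2.84 to 5.37 and HOXA9 at 1.98 to 4.22. Within slide 6, animal 269 had HOXA9 at 10.98 and animals 36 and 58 at 2.64 and 4.78. Without these 5 animals, 941 probes were higher and 553 lower in group B, and they included 768 of the 825 and 420 of the 534, since the other probes fell under 2-fold.

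Whole lists moved with these 5 animals as well. Their endothelial genes had median deviations of -1.35 to -0.95, where the other 6 group A animals had 0.18 to 0.76 and group B -0.07 to 1.04. The untreated controls were low as well, at -1.32 to -0.35 in cross-breed and -1.36 to -0.15 in Holstein animals. Genes of the respiratory chain had -0.49 to -0.28 in the 5 animals, -0.03 to 0.16 in the other 6 and 0.05 to 0.28 in group B. The cross-breed controls had -0.36 to -0.06 and the Holstein controls -0.47 to 0.32. Without the 5 animals the median difference between group B and group A was -0.51 for fast fibre, 0.66 for slow fibre and 0.09 for respiratory chain genes. The sign turned for endothelial genes (-0.16), antigen presentation (-0.11), lipid oxidation (-0.25), leukocyte genes (0.19) and Wnt antagonists (-0.01). The part of endothelial cells in the fibre values was not tested.

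Of 19 genes of glycogen use and glycolysis, PGK1 was lower in group B and GPD1, which links glycolysis to glycerol phosphate, was higher by 1.49, beside 3.27% lower and 5.04% higher of all probes, and the median difference was -0.47. PKM, which makes pyruvate, differed by -2.37, and PYGM, which breaks down glycogen, by -1.65, both with overlap. In the positive animals 10 of the 19 were called lower than in cross-breed controls and 0 higher, beside 13.8% and 14.4% of all probes. Of 7 genes of energy buffering 0 were counted, and the median difference was -0.58. GATM had the largest downward difference, -1.86, and CKB, the brain-type creatine kinase, the largest upward one, 1.70. Without animals 263, 265, 266, 269 and 270 GATM and CKB differed by -0.54 and 0.69, and the median was -0.06.

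Of 61 genes of the respiratory chain, 9 were higher, 0 lower, and the median difference was 0.26, beside 5.04% of all probes higher and a median of -0.05. Without animals 263, 265, 266, 269 and 270 these were 6 higher and 1 lower. ATP5PB and ATP5PO, of the stalk of ATP synthase, differed by 2.88 and 1.73, COX6C, of cytochrome c oxidase, by 2.22, and NDUFA4 by 1.69. COX6C had 12.9999 to 14.02 (median 13.30) in group A and 15.44 to 15.73 (median 15.69) in group B. The cross-breed controls had it at 14.29 to 14.84 and the Holstein controls at 14.94 to 16.01, so that group A was lowest again. COX6C, ATP5PO and NDUFA4 also set slide run 1 apart from run 2 without overlap. Among 19 genes of lipid oxidation ACADM, the medium-chain acyl-CoA dehydrogenase, was higher by 1.78, and UCP3 differed by -2.01 with overlap.

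Of 74 ribosomal protein genes, 14 were higher and 1 lower, beside 5.04% and 3.27% of all probes, and the median difference was 0.23. The sign of this median turned with pairwise cyclic loess. RPL34, RPL4 and RPS21 differed by 4.44, 2.75 and 2.26, and RPL28 by -1.19. The subunits of one particle did not move together, since their differences ran from -1.85 to 4.44. Many ribosomal proteins have near-identical copies in the genome, and which copies a probe binds was not tested. Of 33 proteasome genes, PSMA3 was higher by 1.32 and PSMD14 lower by 1.38 on the log2 scale, a number near the 5.04% and 3.27% of all probes, and the median difference was -0.32.

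**Figure D5:**
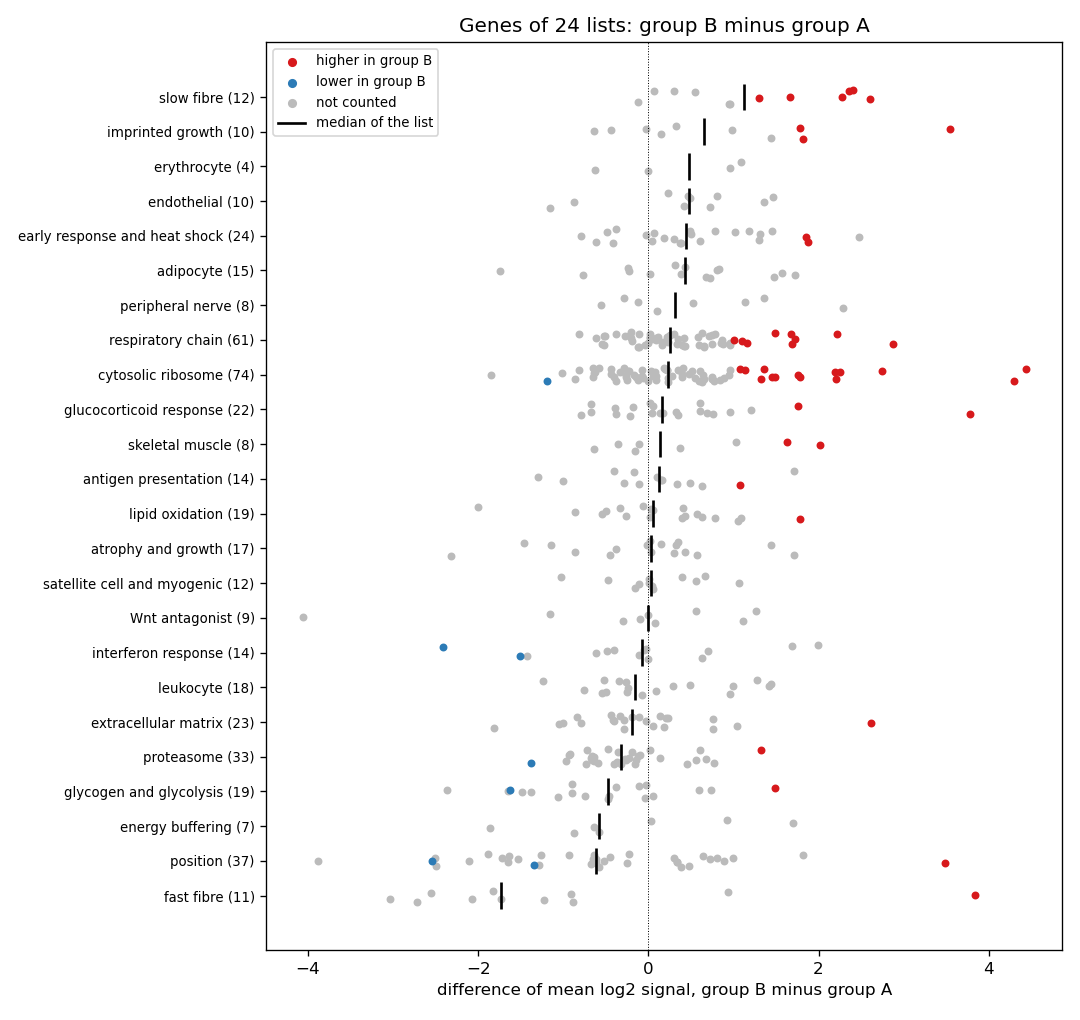
Difference of mean log2 signal between group B and group A (x axis) for the genes of 24 lists (y axis, with the number of genes past the filter), 1 point per gene. Red and blue points are genes higher and lower in group B without overlap, grey points overlap or differ by less than 2-fold, and bars mark the list medians, from -1.73 for fast fibre to 1.13 for slow fibre genes.

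Targets of the glucocorticoid receptor gave 2 higher genes of 22, 0 lower, and a median difference of 0.16, beside 5.04% higher over all probes. KLF15, a transcription factor of muscle amino acid and lipid use, had 1.40 to 4.06 (median 2.56) in group A and 4.10 to 8.38 (median 6.68) in group B. It was well above background on 0 of 11 group A arrays and 9 of 10 group B arrays, at least 5.83-fold higher in group B. The ranges lay 0.04 apart.

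KLF15 did not follow the status of the known animals. It had 3.71 to 5.54 in the positive animals, 5.17 to 6.003 in cross-breed and 5.59 to 8.60 in Holstein controls, and was lower in positive animals than in cross-breed controls by 0.94 (limma adjusted p = 0.0335, under 2-fold). Within group B the 4 animals on slides 9 and 10, beside the positive animals, had KLF15 at 4.10 to 5.71 and the other 6 at 6.55 to 8.38. These 6 included the 5 animals of low spike-in signal, whose part in the KLF15 values was not tested.

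TSC22D3, which encodes the glucocorticoid-induced leucine zipper, had 2.65 to 4.55 (median 3.63) in group A and 5.04 to 6.44 (median 5.29) in group B. The positive animals had 5.10 to 5.44, the cross-breed controls 2.64 to 4.20 and the Holstein controls 5.09 to 6.81. It was well above background on 3 group A arrays, and the untreated Holstein animals had the highest median of the 5 groups. TSC22D3 thus set slide run 1 apart from run 2 without overlap.

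The other glucocorticoid targets overlapped between the groups. FKBP5, a co-chaperone of the receptor, had 9.91 to 13.52 in group A and 10.43 to 13.47 in group B, a difference of 0.17. PER1, SGK1, PDK4 and DUSP1 differed by -0.22, 0.14, 0.05 and -0.39, and NR3C1, the receptor itself, by 0.04. Of 17 genes of atrophy and growth, 0 were higher or lower, near the 5.04% and 3.27% of all probes. The ubiquitin ligases FBXO32 and TRIM63 differed by 1.44 and -0.38, MSTN, which limits muscle mass, by -0.01 and DDIT4L by -2.32, all with overlap. DDIT4L differed by -1.12 without animals 263, 265, 266, 269 and 270. IGFBP5, a binding protein of insulin-like growth factors, differed by 1.72 with overlap, by 2.20 at a second probe, and by 0.99 at the first probe without animals 263, 265, 266, 269 and 270.

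Imprinted growth genes were higher in 3 of 10, beside 5.04% of all probes. Their median difference was 0.65, and 0.26 without animals 263, 265, 266, 269 and 270. PEG3, a paternally expressed zinc finger protein, had 9.94 to 12.46 (median 11.31) in group A and 14.04 to 15.32 (median 14.61) in group B. Its levels were 11.35 to 12.91 in the cross-breed and 14.33 to 15.30 in the Holstein controls, the order seen for TMEM218. DLK1, a growth regulator of muscle and fat, and CDKN1C, a cell cycle inhibitor, differed by 1.81 and 1.79.

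Of 37 genes whose level depends on body position, HOXB2 was higher, at least 3.41-fold, and HOXA3 and HOXB7 were lower, by 2.54 and 1.34 on the log2 scale, beside 5.04% higher and 3.27% lower of all probes. HOXB2 was well above background on 0 group A arrays, and HOXA3 on 1 group B array. The limb markers gave no check of the muscle sampled. TBX5, of the forelimb, did not pass the filter, and TBX4 and PITX1, of the hindlimb, differed by 0.30 and -0.65 with overlap.

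Lists of early response and heat shock genes gave 2 higher genes of 24, beside 5.04% of all probes. The median difference was 0.44, and 0.10 without animals 263, 265, 266, 269 and 270. CRYAB, a small heat shock protein of the sarcomere, had 14.83 to 15.50 (median 15.15) in group A and 16.69 to 17.39 (median 17.11) in group B. FOSB differed by 1.85 at 1 probe and by 0.01 at another. JUN had the largest difference of the list, 2.48, and overlapped between the groups.

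Of the markers of adipocytes, fibroblasts, leukocytes, erythrocytes, endothelium and Schwann cells 0 were counted in either direction, beside 5.04% higher and 3.27% lower of all probes, so that few would be counted at those shares. The brightest probe is named for each cell type, and signals of different probes do not rank their transcripts. The summed linear signal of 5 adipocyte markers, with FABP4 the brightest, had medians of 1152 in group A and 1794 in group B, with 17686 in 1 group B animal, and LEP did not pass the filter. Fibroblast markers, with DCN the brightest, had medians of 22410 and 16303, and leukocyte markers, with CD163 the brightest, 1413 and 1093. Erythrocyte markers, with HBA the brightest and ALAS2 at background on all 21 arrays, had 195 and 437, and endothelial markers, with PECAM1 the brightest in group A and VWF in group B, 7912 and 7939.

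The Schwann cell markers had medians of 3560 and 6494, with S100B the brightest, at 9.53 to 12.33 (median 11.73) in group A and 11.46 to 13.43 (median 12.53) in group B. For muscle markers, with MYOZ1 the brightest in group A and MB in group B, the medians were 691646 and 1049590, and the second rests in part on the saturated MB spots. In whole muscle, more cells of a type and more RNA per cell cannot be told apart. In the wider lists COL6A3, a chain of collagen VI, was higher by 2.62 among 23 matrix genes, and B2M, the light chain of class I molecules, by 1.08 among 14 genes of antigen presentation, 1 gene in each list and near the 5.04% of all probes.

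Interferon-induced genes gave 0 higher and 2 lower of 14, beside 3.27% of all probes lower. Their median difference was -0.08, and -0.59 without animals 263, 265, 266, 269 and 270. The lower genes were MX2 (-2.41) and RSAD2 (-1.51), with 6.12 to 7.56 (median 7.01) for RSAD2 in group A and 4.94 to 6.05 (median 5.40) in group B. The positive animals spanned 5.38 to 8.88 for RSAD2, above and among both groups. All 43 animals were male. ZFY, a zinc finger gene of the Y chromosome, had 2.84 to 4.53 (median 3.85) in group A and 5.52 to 6.98 (median 6.24) in group B, and both control groups had group B levels, whereas UTY differed by -0.63 with overlap and SRY did not pass the filter.

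The genes the study followed were described last. Of its 10 PCR genes, whose basis of choice is not given in the sources used here, 2 were higher in group B, ANKRD35 and BLVRB, and 0 lower, beside 5.04% and 3.27% of all probes. Without animals 263, 265, 266, 269 and 270 only BLVRB was counted. MEN1, NAT14, SIRT3 and S100B differed by 0.99, 0.55, 0.45 and 1.36, and AMPD1, GLUL and DDIT4L by -0.87, -0.38 and -2.32. HOXA9 differed most, by -3.88 with overlap, and its other 3 probes by -3.82, -1.89 and 0.29. Leaving out the same 5 group A animals turned the sign for NAT14 (-0.03), SIRT3 (-0.26) and GLUL (0.52). It left MEN1 at 0.74, S100B at 0.40, AMPD1 at -0.14, DDIT4L at -1.12 and the brightest HOXA9 probe at -0.50. AMPD1, the adenylate deaminase of fast fibres, had 12.03 to 14.36 (median 12.62) in group A and 11.72 to 12.71 (median 12.52) in group B but 14.49 to 15.05 in cross-breed and 14.13 to 14.74 in Holstein controls. The cross-breed controls thus lay above both unknown groups for AMPD1, and the Holstein controls lay above group B but overlapped group A. GLUL, which makes glutamine, had 9.66 to 13.24 (median 10.96) in group A, 9.95 to 12.11 (median 10.998) in group B and 12.47 to 13.35 in the cross-breed controls.

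Both classifier genes, which the study chose to tell positive from control animals, were higher in group B, beside 5.04% of all probes, and without animals 263, 265, 266, 269 and 270 only IPO9 was counted. By the study's own account these genes assigned every group B animal to the positive class and every group A animal to the negative one. Their higher levels in group B are thus no independent result, and the share of all probes is no yardstick for them. IPO9, an importer of histones, had 12.48 to 14.46 (median 12.84) in group A and 14.68 to 16.06 (median 15.63) in group B, with 11.14 to 12.80 in the cross-breed and 15.50 to 16.53 in the Holstein controls. At IPO9 the Holstein controls were with group B, and at PCCB they were below it.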

How the data were processed

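The authors deposited scanner output for each array, made with Agilent Feature Extraction (version 9.5.1 for groups A and B, the positive animals and Holstein controls, 9.1.3 or 9.5.3 for the cross-breed controls), and its processed intensity, which the software had freed of background and spatial trends, was used. A second deposited table held the authors' normalized intensities, which were put on the log2 scale here and served as an alternative. After log2 transformation, all 43 arrays were normalized together by cyclic loess as in the methods of the study (limma 3.58.1, R 4.3.3) and signals were averaged over the spots of each of 21475 probes without outlier spots. A probe was left out where its log2 signal was under 4 on at least 30 arrays, which removed 5121.

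Group B was set against group A by means and ranges only. A probe counted as higher or lower where the ranges did not overlap and the means were at least 2-fold apart. Positive animals and cross-breed controls were compared with limma (two-sided, Benjamini-Hochberg over 16354 probes), a script tested on simulated data first. Where a probe was well above background on no array of the dimmer group, its fold is a lower limit, taken against the dimmest signal still called well above background on those arrays. Probes were named through accessions, gene identifiers, symbols or descriptions in the files, and 4112 stayed unnamed.

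Named genes were the 12 non-overlapping genes with the largest difference in each direction that all arrays of the brighter group measured well above background, up to 4 counted members of each list (or 2 members where none was counted), and all genes of the lists of muscle markers, Y-linked genes and PCR and classifier genes of the study. One of these genes is not reported here. For a list gene with several probes, the brightest stood for it. The members, gene lists and rules were chosen with earlier results of these data known. Each animal gave 1 array, and the number of arrays limits the precision. Alternatives were other normalizations, background correction, filters and sets of arrays.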

Additional observations from a re-analysis of the deposited data

Results flagged for a closer look

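In group B, 98 sets of values (arrays' quality measures and named genes) were searched for an animal far from the other 9, by the gap to its neighbour against the whole range. Such a search marks about 1 in 20 sets by chance, and 8 were marked. Animal 76 had 109 saturated gene spots where the next animal had 5, and animal 79 had 541 outlier spots where the next had 69. Animal 76 also had the lowest MB (17.26, the next 18.19) and MYL6B (17.24, the next 17.88), both with saturated spots on its array, and the highest ADIPOQ, the adipocyte hormone adiponectin (9.57, the next 5.79). CD3E, a subunit of the T cell receptor complex, was highest in animal 78 (9.68, the next 7.72). PSMA3 was highest in animal 52 (12.02, the next 11.60) and BLVRB in animal 29 (14.70, the next 14.29). Without animals 50, 76 and 79, chosen after seeing the data, 952 probes were higher and 706 lower in group B, with 813 of the 825 and 520 of the 534 among them, which leaving out arrays could lower only through the 2-fold limit. The cause of these values was not tested.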

How the results depend on the processing

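Of 768 values of the 60 counted named genes under the alternatives, 0 changed sign and 714 moved by less than 1 SD. These genes were counted for separate ranges, so that leaving out arrays could not turn their sign. Of 400 values of the other named genes, 20 moved by over 1 SD. Among them NAT14, SIRT3 and GLUL changed sign without animals 263, 265, 266, 269 and 270. Counts for group B against group A moved to 493 higher and 101 lower with normexp background correction, to 319 lower with 75th percentile scaling, and to 1304 and 935 without the 5 animals of low spike-in signal. Quantile normalization moved the median difference of all probes from -0.05 to -0.17. List medians moved by more than their spread as follows. With 75th percentile scaling they were 0.54 for skeletal muscle, 0.25 for atrophy, 0.31 for satellite cell, 0.54 for respiratory chain, 0.53 for ribosome and -0.13 for proteasome genes. With pairwise cyclic loess they were 0.40 for atrophy, 0.062 for respiratory chain and -0.15 for ribosome genes, so that the last changed sign. The authors' table gave -0.26 for nerve genes, and normexp -0.20 for position genes. The 2 Y-linked genes gave 0.46 (quantile), 0.15 (normexp), 0.052 (no filter) and -0.63 (well above background only). Without the animals of low spike-in signal the atrophy median was 0.34. Without animals 263, 265, 266, 269 and 270, left out after seeing the data, medians were 0.66 for slow fibre, -0.063 for energy buffering, 0.10 for early response and 0.26 for imprinted genes. Positive animals against cross-breed controls gave 803 higher and 559 lower probes with normexp, 3876 and 3714 with no filter, 1425 lower with 75th percentile scaling and 4375 lower with pairwise cyclic loess. Leaving out each of the 9 animals gave 2255 to 2386 higher and 2101 to 2288 lower. Apart from these constructions, the cause was not tested. No paired analysis was possible because no label pairs the animals of one group with those of another. Dim probes limit the depth, since 64 of the 825 higher probes were at background on every group A array.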

Other observations

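Several lists of cell types and pathways held no gene that separated group B from group A, and over all probes only 5.04% were higher and 3.27% lower. The 18 leukocyte genes had a median difference of -0.15, and of 0.19 with 1 gene counted higher without animals 263, 265, 266, 269 and 270. Within them the T cell genes CD3E and CD3D and the chemokine CCL5 differed by 1.44, 1.42 and 1.27, while CD8A and CD163, of cytotoxic T cells and macrophages, differed by -0.76 and -0.53, all with overlap. The 15 adipocyte genes had a median of 0.43, from PCK1, of glycerol synthesis, at -1.74 to ADIPOQ at 1.73. Without animals 263, 265, 266, 269 and 270 the adipocyte median was 0.20, and PCK1 and ADIPOQ differed by -0.63 and 0.86. CIDEA and CIDEC, proteins of lipid droplets, differed by 1.47 and 1.57.

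Of the 12 satellite cell and myogenic genes, 0 were counted. They had a median difference of 0.03, with PAX7, the marker of satellite cells, at 0.05, MYOG at 0.01, MYOD1 at -1.03 and MYH3, the embryonic myosin heavy chain, at 1.07. Without animals 263, 265, 266, 269 and 270 their median was 0.14, and MYOD1 and MYH3 differed by -0.01 and 0.26. The 10 endothelial genes had a median of 0.47, from PECAM1 at -1.16 to VWF at 1.46. Without the same animals the endothelial median was -0.16, and VWF differed by 0.25. The 9 Wnt antagonists gave 0.00, with FRZB at -4.06 and SFRP1 at 1.26, the 8 nerve genes 0.31 and the 4 erythrocyte genes 0.48. FRZB and SFRP1 differed by -2.01 and 0.05 without these animals. For matrix, antigen presentation, interferon and position genes the medians were -0.19, 0.13, -0.08 and -0.62. Leaving out the same animals gave -0.02, -0.11, -0.59 and -0.39.

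Probes varied more within group A than within group B. The SD was larger in group A at 64.6% of the 16354 probes, with a median SD of 0.50 against 0.41 on the log2 scale. With animals 263, 265, 266, 269 and 270 as the only group A arrays, 1972 probes were higher and 1803 lower in group B.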
